A study of Homo sapiens with 4 samples.

Results

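The genes described here are 10 members of the interleukin 6 (IL-6) family and its signalling chain, out of 20263 genes in the deposited count table: the cytokines IL6, LIF, IL11 and CLCF1, the receptor chains IL6R, IL6ST, OSMR and LIFR, the feedback inhibitor SOCS3 and the transcription factor STAT3. They were taken by name, and all 10 were abundant enough to be tested. RNA sequencing was done on MDA-MB-231, an established human breast cancer cell line of the triple-negative type, grown in medium with 10% fetal bovine serum. The treated group (n = 2 libraries) received YW-LF, which the series title describes as derived from ribociclib, a drug that inhibits the cell cycle kinases CDK4 and CDK6, for 24 h. The control group (n = 2 libraries) carries the label DMSO, the usual solvent for such compounds. Neither the dose of YW-LF nor the number of separate cultures is stated in the sources at hand, so each p-value measures the spread between these libraries, which may be technical.

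Cytokines of the IL-6 family share 1 signalling chain, gp130, which IL6ST encodes. IL-6 and IL-11 first bind their own receptor chains and then pair gp130 molecules, whereas LIF joins gp130 to the LIF receptor chain, and oncostatin M joins it to OSMR or LIFR. The paired receptors activate JAK kinases, which phosphorylate STAT3. STAT3 then enters the nucleus and switches on genes that include SOCS3, whose protein binds gp130 and the JAK kinases and shuts the signal down. In breast cancer cells that lack hormone receptors, IL-6 and LIF are known as products that the cells make themselves and to which they can respond.

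All 4 cytokine messages share a feature that the choice of genes did not use. AU-rich copies of TATTTAT in the 3′ untranslated region are recognised by proteins that destabilise messages. In the GENCODE 29 transcripts IL6 holds 3 copies, LIF 5, IL11 7 and CLCF1 4. Of 17676 coding genes with such a region of at least 100 bases, 5.65% hold at least 3. Among the other members OSMR has 3 copies, SOCS3 has 2, IL6ST and LIFR have 1 each, and IL6R and STAT3 have 0. Per kilobase of the region IL6 holds 6.99 copies, IL11 4.33, CLCF1 4.13 and LIF 1.56. LIF is thus close to OSMR (1.37) and SOCS3 (1.22) by this measure. The stretches below, of 30 bases each, come from the messages with the largest positive differences, with the copies in capitals.
IL6 3′ site: ttttaaagaaaTATTTATattgTATTTATa
LIF 3′ site: ctccgggccctTATTTATtatttaaacatt

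Upstream of the start sites, only IL6 and IL11 among the cytokines could be searched. RefSeq promoter windows on GRCh38.p14 were at hand for 8 members, in 11 windows, and the 250 bases before each start were searched on both strands. The motifs were a STAT site (TTCNNNGAA, in 6.57% of 35116 promoters), an AP-1 site (TGANTCA, 6.57%), a cyclic AMP response core (TGACGTCA, 1.65%) and an NF-kB core (GGANTTTCC, 1.45%). IL6 held an NF-kB core, IL11 an AP-1 site, and LIFR a STAT site in each of 2 of its 3 windows. No such letters were in the windows of IL6R, IL6ST, OSMR, SOCS3 or STAT3. LIF and CLCF1 had no entry. The IL6 and IL11 stretches are shown because only the first of these cytokines was separated between the groups. IL6 lies at chr7:22727050-22727146 on the plus strand and IL11 at chr19:55370464-55370613 on the minus strand, and capitals mark the matches. The IL6 stretch lies within the annotated span of the gene and stops before an annotated exon, short of the RefSeq start. Its match is 72 to 64 bases upstream of that start.
IL6 promoter: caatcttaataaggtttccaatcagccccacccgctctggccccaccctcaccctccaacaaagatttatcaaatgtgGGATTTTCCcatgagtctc
IL11 promoter: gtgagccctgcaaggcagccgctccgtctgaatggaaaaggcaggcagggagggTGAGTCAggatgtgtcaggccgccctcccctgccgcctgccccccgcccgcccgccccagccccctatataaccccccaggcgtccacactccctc

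Libraries held 34774542 to 40218240 counts. Mitochondrially encoded genes made up 8.68% and 21.7% of the DMSO counts and 3.14% and 6.58% of the YW-LF counts. The YW-LF libraries resembled each other less (Pearson r = 0.907 across 13816 genes, which are not independent replicates) than the DMSO libraries did (0.976). Of 6 markers of mesenchymal-type breast lines, all 6 were above 1 CPM in every library, with summed levels of 8218 and 10220 CPM in DMSO and 4835 and 7707 CPM in YW-LF. CPM here is the count relative to a common library total of 1e+06, after scaling by the trimmed mean of M-values (TMM). Luminal markers summed to 98.6 and 104 CPM in DMSO and to 85.7 and 42.3 CPM in YW-LF. Most of that was ERBB2, and the oestrogen receptor gene ESR1 stayed at or below 0.657 CPM. Of the 7 luminal markers, 3 (ERBB2, GATA3 and EPCAM) were above 1 CPM in every library. Blood cell markers, from cells that could also make IL-6, summed to at most 1.43 CPM in any library, with CD3E at 0 throughout. Fibroblast and endothelial markers summed to 2.63 to 4.30 CPM in DMSO and to 1.91 to 2.77 CPM in YW-LF. Of these markers PDGFRB alone was above 1 CPM in every library (1.33 to 2.67 CPM), and DCN and COL1A2 were at 0. In bulk RNA, fewer cells of a kind and less RNA per cell cannot be told apart.

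The members did not share 1 direction. IL6 and LIF messages were more abundant in both YW-LF libraries than in either DMSO library, SOCS3 was less abundant in both, and IL11 and CLCF1 overlapped between the groups. Of the 10 members, 5 lay above DMSO in both treated libraries: IL6, LIF, IL6R, IL6ST and STAT3. SOCS3 and OSMR, 2 of 10, lay below. Over all genes tested, 28.0% lay above in the same way and 27.8% below. In log2 fold change the members had a median of 0.47 and all genes tested one of 0.06. Antisense genes overlap exons of IL6, LIF, IL6ST and LIFR, and since no source states whether counting used strand, their reads cannot be told apart.

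No member passed the main test. In edgeR's quasi-likelihood fit, after Benjamini-Hochberg adjustment at 0.05 over 13816 genes, 0 members and 0.0% of all genes were called, the lowest adjusted p of any gene being 0.117. At an unadjusted p under 0.05 there were 4 members (IL6, LIF and IL6R higher, SOCS3 lower), against 20.5% of all genes. DESeq2 called 3 members (IL6 and LIF higher, SOCS3 lower), against 10.6% of the genes to which it gave an adjusted p. Limma-voom called 0 members and 0.0% of genes. Leaving out 1 library in edgeR moved the number called: 7 members (41.7% of genes) when YW-LF replicate 1 was omitted, 3 (20.3%) for YW-LF replicate 2, 1 (0.512%) for DMSO replicate 1 and 0 (0.443%) for DMSO replicate 2. All adjusted p-values below are edgeR's over all genes unless DESeq2 is named.

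**Figure D1:**
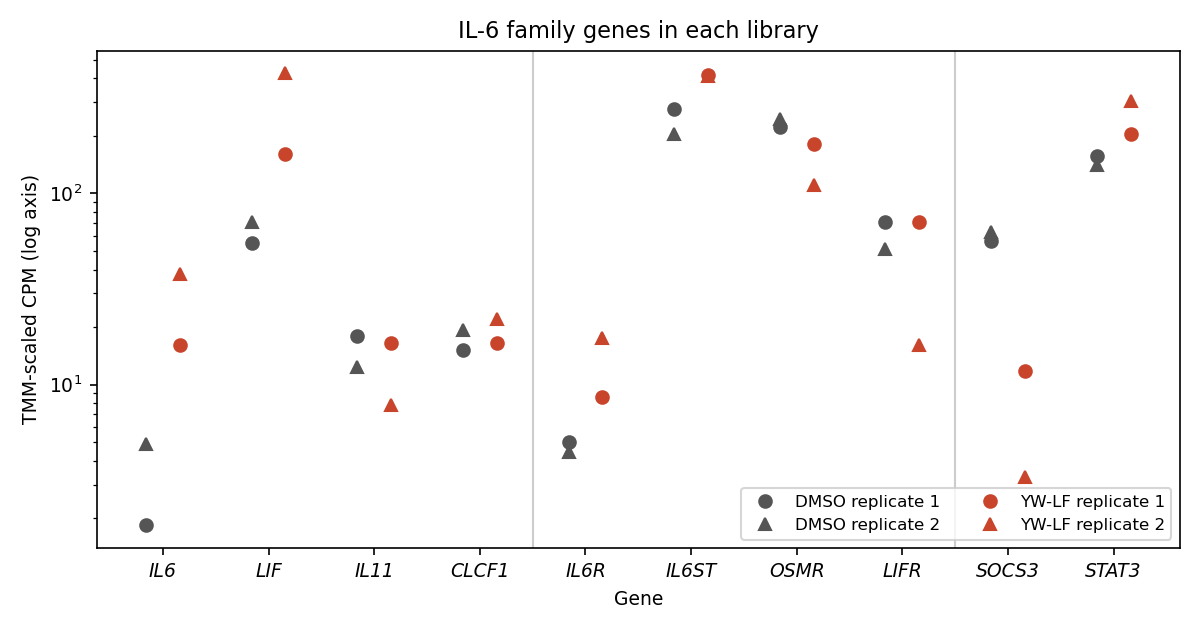
TMM-scaled CPM (log axis) of each member in each of the 4 libraries; grey symbols are DMSO and red symbols YW-LF, circles replicate 1 and triangles replicate 2. Vertical lines part cytokines, receptor chains and signalling genes. IL6 and LIF sit higher in both YW-LF libraries, SOCS3 sits lower in both, and IL11, CLCF1 and LIFR overlap.

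IL6 (ENSG00000136244, chromosome 7, 22725884 to 22732002 in GRCh38) encodes interleukin 6, the cytokine that gave the family its name. It had 69 and 164 counts in the DMSO libraries and 807 and 1173 in the YW-LF libraries. This corresponded to 1.84 and 4.90 CPM in DMSO and 16.1 and 38.0 CPM in YW-LF. Even the lower treated library was above the higher control, although the 2 controls differed from each other by 1.39 on the log2 scale. The log2 fold change was 3.002 (SE 0.684, 95% interval 1.36 to 4.64, adjusted p = 0.121; DESeq2 adjusted p = 1.97e-04), an 8.01-fold difference that ranked 292nd from the top among 13816 genes. With 1 control omitted it was 2.47 (DMSO replicate 1) or 3.86 (DMSO replicate 2), and with 1 treated library omitted 3.50 (YW-LF replicate 1) or 2.24 (YW-LF replicate 2). IL6 passed at 0.05 when either YW-LF library was left out (adjusted p = 0.00105 and 0.0251), where the DMSO pair alone sets the spread.

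LIF (ENSG00000128342, chromosome 22, 30240447 to 30246851) encodes leukaemia inhibitory factor, which signals through gp130 and the LIF receptor chain. Its level was 55.1 and 71.3 CPM in DMSO and 161 and 424 CPM in YW-LF. Both treated libraries were high, the second by far the more so. The group values were 63.2 ± 11.4 CPM and 292.5 ± 186 CPM (mean ± SD, n = 2 each). The log2 fold change was 2.21 (SE 0.56, 95% interval 0.87 to 3.55, adjusted p = 0.13; DESeq2 adjusted p = 0.00166), a 4.63-fold difference. Omitting YW-LF replicate 2 gave 1.34 (adjusted p = 0.0185) and omitting YW-LF replicate 1 gave 2.74 (adjusted p = 3.65e-04). Omitting DMSO replicate 1 or DMSO replicate 2 gave 2.04 or 2.39, and LIF then did not pass.

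The other cytokines were not separated between the groups. IL11 (chromosome 19, 55364389 to 55370463), which signals through gp130 after binding its own receptor IL11RA, was at 17.9 and 12.4 CPM in DMSO and 16.6 and 7.80 CPM in YW-LF. The first treated library lay between the controls and the second below both. Its log2 fold change was -0.31 (SE 0.51, adjusted p = 0.758), and the 95% interval of -1.54 to 0.91 includes both a fall and a rise. Without YW-LF replicate 2 the sign turned (0.12).

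CLCF1 (chromosome 11, 67364168 to 67374177) encodes cardiotrophin-like cytokine factor 1, a ligand of the ciliary neurotrophic factor receptor. Its levels were 15.2 and 19.2 CPM in DMSO and 16.6 and 22.0 CPM in YW-LF. The groups interleaved, with a log2 fold change of 0.16 (SE 0.40, 95% interval -0.79 to 1.11, adjusted p = 0.843). The sign turned here too without YW-LF replicate 2 (-0.07). CLCF1 was thus the member with the smallest estimated difference.

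Among the receptors, the signal-sharing chain and the IL-6 binding chain were higher in both treated libraries. IL6ST (ENSG00000134352, chromosome 5, 55935095 to 55994993), the gp130 chain itself, was at 277 and 203 CPM in DMSO and 414 and 413 CPM in YW-LF. The treated libraries gave nearly the same value, unlike most other members. Its log2 fold change was 0.78 (SE 0.42, 95% interval -0.21 to 1.78, adjusted p = 0.327).

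IL6R (chromosome 1, 154405193 to 154469450), the chain that gives a cell its response to IL-6, had few reads: 187 and 149 counts in DMSO and 432 and 544 in YW-LF. That was 4.99 and 4.45 CPM against 8.60 and 17.6 CPM, so the controls lay close together and the treated libraries apart. The log2 fold change was 1.47 (SE 0.53, 95% interval 0.19 to 2.75, adjusted p = 0.205; DESeq2 adjusted p = 0.085). Omitting YW-LF replicate 2 gave 0.85, and omitting YW-LF replicate 1 gave 1.89.

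The partner chains had the opposite sign. OSMR (chromosome 5, 38845858 to 38945596), which pairs with gp130 to bind oncostatin M, was at 221 and 244 CPM in DMSO and 181 and 111 CPM in YW-LF. Both treated libraries lay below the controls, with a log2 fold change of -0.67 (SE 0.42, 95% interval -1.67 to 0.33, adjusted p = 0.396). Omitting YW-LF replicate 1 gave -1.07 (adjusted p = 0.016), and omitting YW-LF replicate 2 gave -0.37 (adjusted p = 0.359). LIFR (chromosome 5, 38474963 to 38608354), the chain that LIF needs, was at 70.8 and 51.3 CPM in DMSO and 70.7 and 16.2 CPM in YW-LF. The first treated library matched a control and only the second was low. The log2 fold change was -0.49 (SE 0.67, 95% interval -2.09 to 1.11, adjusted p = 0.709). It became -1.92 when YW-LF replicate 1 was omitted and 0.20 when YW-LF replicate 2 was omitted. The direction for LIFR thus rests on YW-LF replicate 2.

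SOCS3 (ENSG00000184557, chromosome 17, 78356778 to 78360077), the feedback inhibitor, had the largest negative difference of the members. It had 2116 and 2110 counts in DMSO and 590 and 102 in YW-LF. Its level was 56.5 and 63.1 CPM in DMSO and 11.7 and 3.30 CPM in YW-LF. The controls were nearly equal, and each treated library was far below them. The log2 fold change was -2.99 (SE 0.64, 95% interval -4.52 to -1.45, adjusted p = 0.121; DESeq2 adjusted p = 5.84e-05), a level 7.92-fold lower that ranked 86th from the bottom among 13816 genes. Omitting YW-LF replicate 1 gave -4.18 (adjusted p = 2.11e-04) and omitting YW-LF replicate 2 gave -2.36 (adjusted p = 0.00608). Omitting DMSO replicate 1 gave -3.05 (adjusted p = 0.0425) and omitting DMSO replicate 2 gave -2.92, the only one of the 4 in which SOCS3 did not pass.

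STAT3 (chromosome 17, 42313324 to 42388568), which carries the signal to the nucleus and in many cells induces SOCS3, was at 156 and 140 CPM in DMSO and 206 and 304 CPM in YW-LF. Both treated libraries were above the controls. The log2 fold change was 0.78 (SE 0.40, 95% interval -0.18 to 1.75, adjusted p = 0.317). Omitting YW-LF replicate 1 gave 1.03 and omitting YW-LF replicate 2 gave 0.46. These are message levels, and phosphorylation of the protein was not measured.

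**Figure D2:**
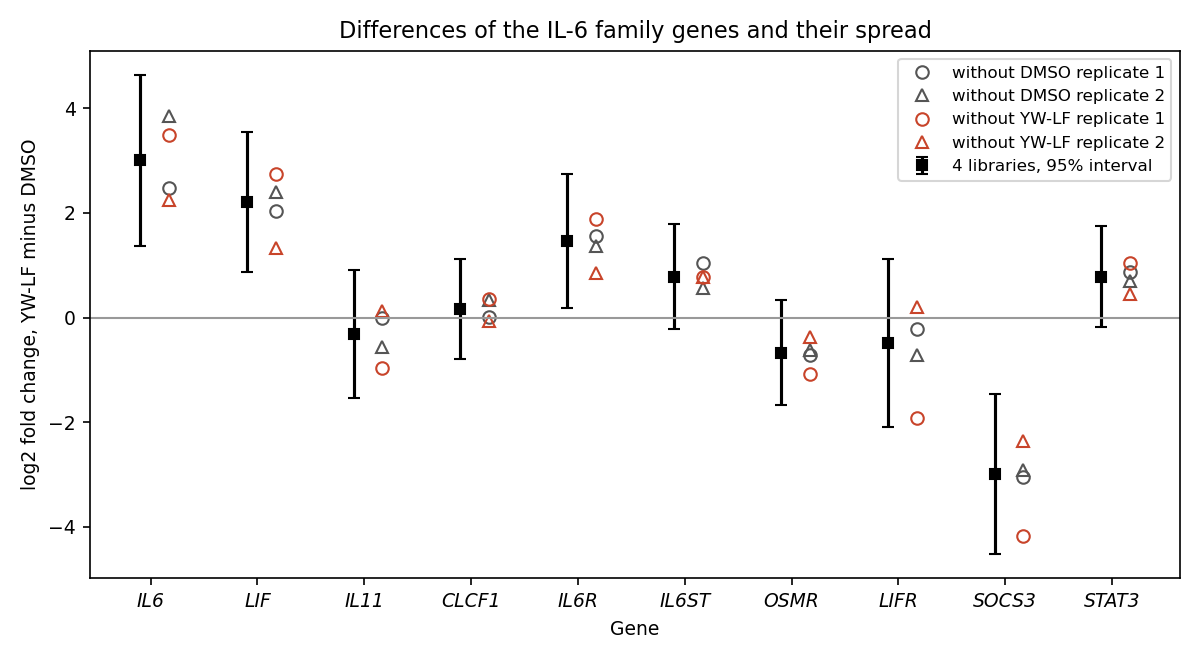
Log2 fold change (YW-LF minus DMSO) of each member. Black squares with bars are the estimate from 4 libraries and its 95% interval; open symbols are the estimates with 1 library left out. The intervals of IL6, LIF, IL6R and SOCS3 do not reach 0, before adjustment for the number of genes; IL11, CLCF1 and LIFR change sign without YW-LF replicate 2.

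The treated libraries differed from the controls by unequal amounts. In 9 of the 10 members YW-LF replicate 2 lay farther from the DMSO mean (log2 CPM) than YW-LF replicate 1, as it did in 61.6% of all genes tested. In 7 of 10 both treated libraries lay on the same side of that mean, against 68.0% of all genes. Relative to the DMSO mean, SOCS3 was at -2.34 in the first treated library and -4.15 in the second, LIF at 1.36 and 2.76, and IL6 at 2.39 and 3.63. IL6ST stood at 0.80 in each. The part of library differences such as the mitochondrial share in these values was not tested.

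Ratios between genes of 1 library need no scaling between libraries. For each LIF count there were 1.02 and 0.885 SOCS3 counts in DMSO, and 0.0731 and 0.00778 in YW-LF. For each STAT3 count there were 0.361 and 0.450 SOCS3 counts in DMSO, and 0.0571 and 0.0109 in YW-LF. The inhibitor message was therefore low relative to both the cytokine and the transcription factor in each treated library. LIF counts per IL11 count were 3.07 and 5.76 in DMSO and 9.67 and 54.4 in YW-LF. Among receptors, OSMR counts per IL6ST count were 0.799 and 1.20 in DMSO and 0.438 and 0.268 in YW-LF. LIFR counts per IL6ST count were 0.256 and 0.252 in DMSO and 0.171 and 0.0392 in YW-LF. So both partner chains were scarcer relative to gp130 in each treated library, including LIFR, whose scaled level overlapped. IL6R counts per IL6ST count overlapped (0.0180 and 0.0219 in DMSO, 0.0208 and 0.0426 in YW-LF). Where 1 gene of a pair lay above DMSO and the other below, the ratio had to separate the groups. That holds for SOCS3 per LIF, SOCS3 per STAT3 and OSMR per IL6ST. The pairs were chosen after the values were seen and carry no test.

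**Figure D3:**
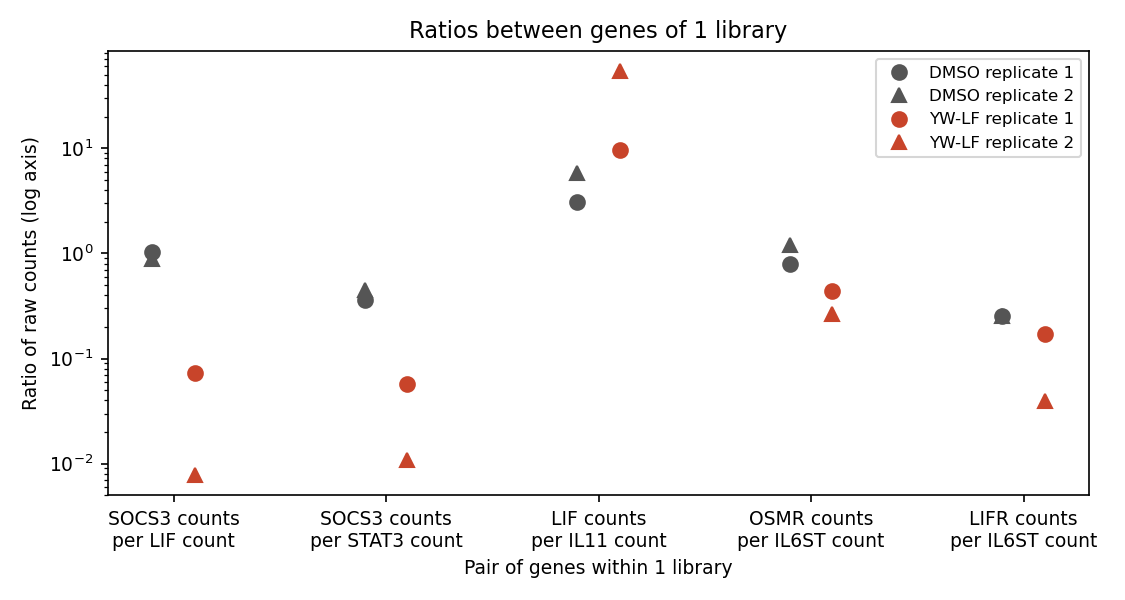
Ratios of raw counts between 2 genes of the same library (log axis), with DMSO in grey, YW-LF in red, circles for replicate 1 and triangles for replicate 2. SOCS3 per LIF count goes from 1.02 and 0.885 in DMSO to 0.0731 and 0.00778 in YW-LF. The 5 ratios drawn do not overlap between the groups. For SOCS3 per LIF, SOCS3 per STAT3 and OSMR per IL6ST this follows from the positions of the single genes and adds nothing to them. The ratios were chosen after the values were seen, and IL6R per IL6ST, which overlapped, is not drawn.

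Levels can be compared between genes when divided by length. Per kilobase of annotated exon, the order in DMSO was OSMR (30.8 and 34.0 CPM per kb), IL6ST (29.8 and 21.9), SOCS3 (20.7 and 23.1), STAT3 (17.7 and 15.9) and LIF (13.9 and 18.0). After these came CLCF1 (7.71 and 9.73), IL11 (6.72 and 4.63), LIFR (5.97 and 4.32), IL6 (0.891 and 2.37) and IL6R (0.774 and 0.690). The neighbours IL6ST and SOCS3, STAT3 and LIF, and IL11 and LIFR overlapped in DMSO. The control cells thus held more LIF than IL6 message, and far more of the chains OSMR and IL6ST than of the IL-6 binding chain.

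In the YW-LF libraries the order differed, although IL6R was last by its mean in both groups. LIF came first by its mean (40.5 and 107 CPM per kb), overlapping IL6ST (44.6 and 44.5), followed by STAT3 (23.3 and 34.5), OSMR (25.3 and 15.4) and IL6 (7.76 and 18.4). STAT3 overlapped OSMR, and OSMR overlapped IL6. CLCF1 came next (8.38 and 11.1) and overlapped IL6. It was followed by IL11 (6.22 and 2.92) and LIFR (5.96 and 1.37), which overlapped each other. By its mean SOCS3 was next to last (4.29 and 1.21), with IL6R (1.33 and 2.73) after it. The values of SOCS3 overlapped those of IL6R, LIFR and IL11, and in YW-LF replicate 2 SOCS3 was the lowest member. Exon length here is the union over annotated transcripts, which understates the level of genes with long unused exons.

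Of the other ligands and receptors of the family, 6 of 11 were abundant enough to test and 0 passed (0.0% of all genes). Oncostatin M (OSM) had 2 and 0 counts in DMSO and 14 and 6 in YW-LF. The ciliary neurotrophic factor receptor CNTFR, which CLCF1 needs, and IL31 had 0 counts in all 4 libraries. Both YW-LF libraries were above DMSO for IL27RA, the receptor of interleukin 27 (log2 fold change 0.73, SE 0.38, adjusted p = 0.324), and below it for CTF1, cardiotrophin 1 (-0.64, SE 0.47, adjusted p = 0.471). EBI3, a subunit of interleukin 27, was near 1 CPM in all libraries (0.25, SE 0.70). The median of the 6 was 0.04.

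Kinases and adaptors that act below gp130 went both ways. Of 14 tested out of 15, both treated libraries were above DMSO in 6 and below in 3 (28.0% and 27.8% of all genes), 0 passed, and the median was -0.02 in log2. STAT2, a transcription factor of interferon signalling, was at 41.0 and 33.7 CPM in DMSO and 98.6 and 72.9 CPM in YW-LF (1.20, SE 0.37, adjusted p = 0.162). STAT5A, a STAT of prolactin signalling, was at 20.5 and 30.2 CPM in DMSO and 11.7 and 7.02 CPM in YW-LF (-1.44 in log2, SE 0.46). GAB1, an adaptor that links gp130 to other kinase pathways, was at 12.0 and 18.2 CPM in DMSO and 7.94 and 3.56 CPM in YW-LF. Its log2 fold change was -1.39 (SE 0.55, adjusted p = 0.232). With YW-LF replicate 1 omitted it was -2.09, and with YW-LF replicate 2 omitted -0.94.

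The other negative regulators differed in direction among themselves. Of 13 tested out of 14, 3 lay above DMSO in both treated libraries and 6 below (28.0% and 27.8% of all genes), and 0 passed (median -0.07). SOCS6, another protein of the SOCS family, was at 18.0 and 13.4 CPM in DMSO and 39.7 and 36.5 CPM in YW-LF, a log2 fold change of 1.28 (SE 0.38, adjusted p = 0.154), opposite in sign to SOCS3. PIAS3, a protein inhibitor of activated STAT3, was at 110 and 112 CPM in DMSO and 39.4 and 39.2 CPM in YW-LF. Its replicates were nearly equal within each group, and its log2 fold change was -1.50 (SE 0.34, adjusted p = 0.121; DESeq2 adjusted p = 0.0118). PTPN2, a phosphatase that removes phosphate from STATs and JAKs, stood at -1.14 (SE 0.38, adjusted p = 0.185).

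Genes that act in the release of IL-6 receptors from the cell surface, proteases and their regulators, were also unlike each other. Of 4 genes tested, 2 lay above and 1 below (28.0% and 27.8% of all genes), and 0 passed (median 0.14). The sheddase ADAM17 was at 61.3 and 61.0 CPM in DMSO and 132 and 75.2 CPM in YW-LF, a difference of 0.76 in log2 (SE 0.41). The second treated library was close to DMSO. The difference was 0.295 with YW-LF replicate 1 omitted and 1.10 with YW-LF replicate 2 omitted. Its regulator RHBDF1 had a log2 fold change of 1.19 (SE 0.36, adjusted p = 0.159). ADAM10, the other sheddase, was at 146 and 98.7 CPM in DMSO and 77.1 and 33.6 CPM in YW-LF (-1.14, SE 0.50, adjusted p = 0.259). It stood at -1.87 with YW-LF replicate 1 omitted and at -0.68 with YW-LF replicate 2 omitted.

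Factors that set the life of IL6 and similar messages had 2 of 10 members above DMSO in both treated libraries and 4 below (28.0% and 27.8% of all genes), with 0 passed and a median of 0.14. The 2 were RC3H1 (Roquin-1), at 1.20 (SE 0.35, adjusted p = 0.149), and its paralogue RC3H2, at 0.90 (SE 0.37), both known to promote decay of such messages. HNRNPD (AUF1), which binds AU-rich elements, was at 396.5 and 480.2 CPM in DMSO and 96.7 and 246 CPM in YW-LF, a log2 fold change of -1.36 (SE 0.55, adjusted p = 0.237). That became -0.84 with YW-LF replicate 1 omitted (adjusted p = 0.04996) and -2.19 with YW-LF replicate 2 omitted (adjusted p = 0.00841).

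Genes that STAT3 is known to induce were found on both sides of DMSO. Of 19 tested out of 20, both treated libraries were above DMSO in 7 and below in 5 (28.0% and 27.8% of all genes), and their median was 0.28 in log2. In edgeR 0 of the 19 passed (0.0% of all genes), while DESeq2 called 5 of them higher and 2 lower, against 10.6% of all genes in either direction. JUNB, an AP-1 subunit, was at 31.4 and 55.8 CPM in DMSO and 220 and 323 CPM in YW-LF. Its log2 fold change was 2.64 (SE 0.48, adjusted p = 0.121; DESeq2 adjusted p = 1.33e-05). FOS, another AP-1 subunit, was at 5.47 and 10.9 CPM in DMSO and 28.2 and 81.1 CPM in YW-LF. Its log2 fold change was 2.74 (SE 0.64, adjusted p = 0.122; DESeq2 adjusted p = 3.92e-04). With YW-LF replicate 2 omitted FOS stood at 1.77. IL4R, the interleukin 4 receptor, was at 68.3 and 57.0 CPM in DMSO and 20.0 and 19.5 CPM in YW-LF (-1.66, SE 0.35, adjusted p = 0.121; DESeq2 adjusted p = 0.00593). Many of these genes also answer to other pathways. The 18 genes given with fold changes in these 6 lists were picked as the 3 of lowest p in each. Their fold changes are thus no measure of the lists as a whole. Whether they passed in edgeR with 1 library omitted depended on which library it was.

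**Figure D4:**
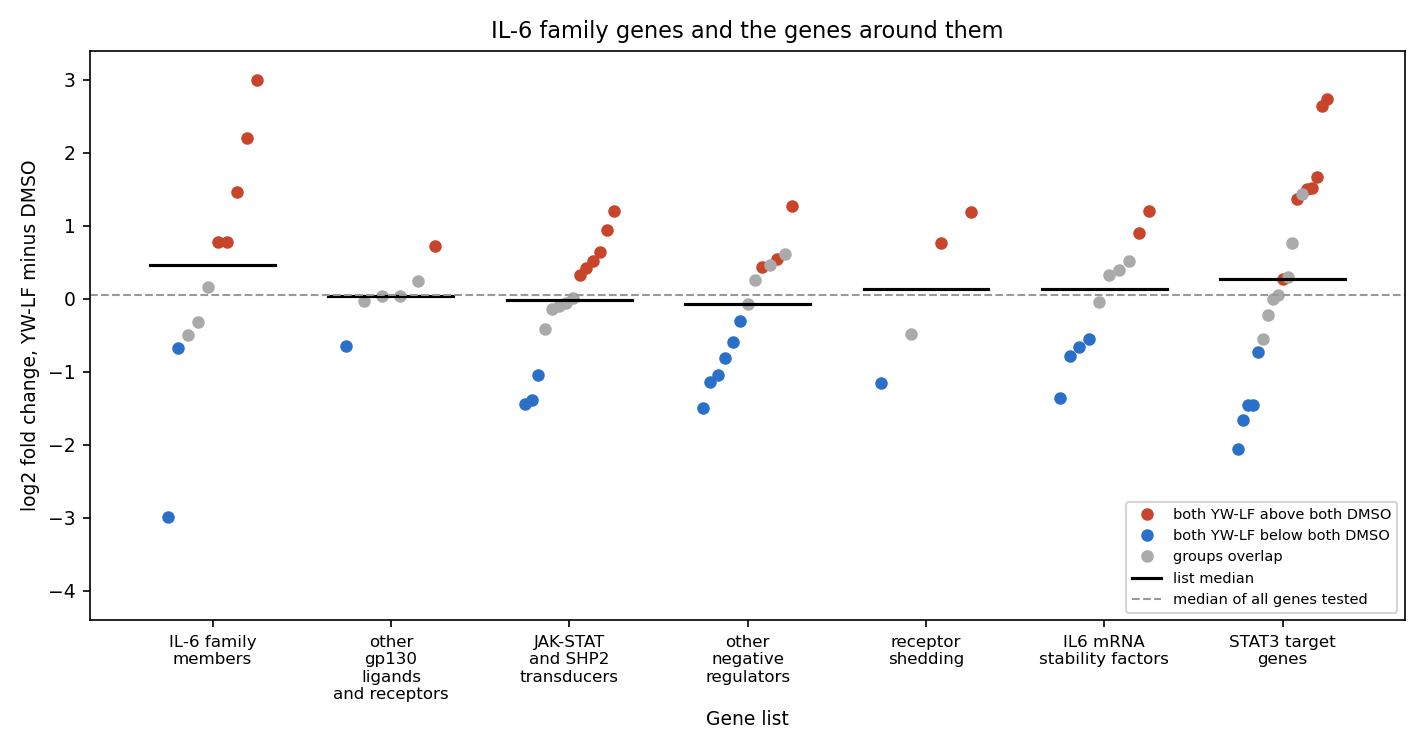
Log2 fold change (YW-LF minus DMSO) of every tested gene in the IL-6 family and in 6 lists of related genes. Red points have both YW-LF libraries above both DMSO libraries, blue points below, grey points overlap; black bars are list medians and the dashed line is the median of all genes tested. The family spans -2.99 (SOCS3) to 3.002 (IL6), and its median of 0.47 lies above those of the other lists.

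The profiles most like those of IL6 and LIF were sought among 10808 genes with a mean of at least 5 CPM, by root mean square distance of centred log2 CPM over the 4 libraries. Nearest to IL6 were the histone gene H2BC4 (distance 0.193), the stress-response transcription factor ATF3 (0.228) and FOS (0.261). H2BC4 was at 1.12 and 2.39 CPM in DMSO and 7.38 and 16.5 CPM in YW-LF. It thus met the limit of 5 CPM only through the YW-LF libraries, where it was high. ATF3 was at 7.37 and 14.3 CPM in DMSO and 56.2 and 169 CPM in YW-LF. Nearest to LIF were the zinc finger genes ZNF333 (0.040) and ZNF557 (0.078) and the kinase gene RIOK3 (0.090). RIOK3 was at 33.2 and 43.0 CPM in DMSO and 110 and 245 CPM in YW-LF. With 4 libraries many genes can share a profile, and the distances are a description only.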

How the data were processed

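The authors deposited raw counts, 1 whole number per gene and library, as the values show. For the aligner, counting program, strand setting and annotation, the sources used here give no name. Mouse builds (GRCm38, mm10) are named in the submitters' processing notes, whereas all 20263 identifiers are human. A further 2 data columns fit no sample label and were left out. Symbols were found for 20148 identifiers; coordinates and exon lengths are GENCODE 29.

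From the counts, edgeR 4.0.16 (R 4.3.3) kept 13816 genes (filterByExpr), scaled them by TMM and tested YW-LF against DMSO with a quasi-likelihood F-test without covariates. SE is the log2 fold change divided by the square root of F. Log2 CPM used a prior count of 2. At these depths 1 count is worth 0.0249 to 0.0288 CPM before TMM scaling. DESeq2 1.42.0 and limma 3.58.1 (voom) were among the alternatives, with other scalings, filters, a threshold of 0.01, removal of 13 mitochondrial genes and leaving out each library. The fit was tested on simulated data with the spread seen between these libraries. It called 2.04% of genes changed by 1 in log2 and 62.6% of those changed by 3. A gene that did not pass may therefore still differ. The simulation gave both groups the same spread for a gene, whereas the YW-LF libraries resembled each other less than the DMSO libraries did. These shares need not hold for the measured data, in which 0 genes passed.

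Named genes are the members, the 3 of lowest p in each related list, and the 3 nearest to IL6 and LIF. Members and lists were chosen with earlier results of these data known. No copies were found among replicates (chi-square per degree of freedom 222 in DMSO and 512 in YW-LF).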

Additional observations from a re-analysis of the deposited data

How the results depend on the processing

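Over all genes, 0 were called higher and 0 lower in edgeR as reported and in limma-voom. The same held in edgeR with DESeq2 size factors, upper quartile scaling or library size only. It also held with at least 10 counts in all 4 libraries, a robust fit or mitochondrial genes removed. A threshold of 0.01 reuses the reported fit, so it could neither add a call nor turn a direction. With no filter beyond a total count of 1, edgeR called 155 higher and 120 lower (members: IL6 higher, 1, and SOCS3 lower, 1), and DESeq2 called 816 and 621 (members: 2 and 1). A replicate block gave 186 and 145 (members: IL6, 1, and SOCS3, 1). The labels tie the numbers to no batch, and deviations of same-numbered libraries correlated across genes with r = 0.0368, so they were not taken as pairs. Leaving out 1 library gave 46 to 2963 genes higher and 16 to 2919 lower, 0 to 4 members higher and 0 to 3 lower; without a YW-LF library the DMSO pair alone sets the spread, and the lone treated library is assumed to vary like it. Of the 10 members, 7 kept their direction under all 15 alternatives, of which the threshold of 0.01 could not turn any. IL11 (0.12), CLCF1 (-0.068) and LIFR (0.20) reversed without YW-LF replicate 2; over the fits lacking 1 library they spanned -0.963 to 0.12, -0.068 to 0.351 and -1.917 to 0.20. The cause was not tested. With all libraries, log2 fold changes stayed within 2.93 to 3.04 for IL6, 2.06 to 2.23 for LIF and -3.24 to -2.74 for SOCS3.

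Depth limits IL6 most, at 69 counts in DMSO replicate 1. Without a stated strand setting, reads of a gene and an antisense gene on the same bases cannot be told apart: GENCODE places antisense genes over 428 exon bases of IL6, 92 and 175 of LIF, 797 of IL6ST and 629 of LIFR. The coding genes STEAP1B and RICTOR share 46 bases with IL6 and 229 with OSMR, and a further coding gene shares 61 with CLCF1. IL6R and IL6ST have processed pseudogenes, so reads may be shared.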
